A study of Homo sapiens
Mus musculus with 16 samples.

Results

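The epidermal kallikreins examined here were the 10 human genes KLK5, KLK6, KLK7, KLK8, KLK9, KLK10, KLK11, KLK12, KLK13 and KLK14, taken by symbol from the 23368 genes of the human table. They were measured in xenografts of ScaBER, an established line of human bladder squamous carcinoma, grown in Hsd:Athymic Nude-Foxn1nu mice, which lack a working thymus and a normal coat of hair. Animals received vehicle (0.5% methylcellulose with 0.1% Tween80), 40 mg/kg of nintedanib, 25 mg/kg of alpelisib (also called BYL719), or both drugs at those doses, and tumours were collected after 14 days, with 4 libraries in each of the 4 groups. Nintedanib inhibits the VEGF, FGF and PDGF receptor tyrosine kinases, and alpelisib inhibits the alpha catalytic subunit of PI3K. All groups came from a single cell line in a single mouse strain, the ages of the animals are not given in the labels, and the series set out to study how the drugs act together in vivo.

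Kallikreins are secreted serine proteases made as inactive precursors. In the upper epidermis trypsin-like members such as KLK5 activate themselves and other members, and the active enzymes cut the corneodesmosome proteins that hold cornified cells together, so that these cells are shed. LEKTI, the product of SPINK5, restrains them, and its loss causes Netherton syndrome, a disease of overactive skin shedding. The genes lie in one cluster on chromosome 19, and many squamous and glandular epithelia express several of them.

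Values below are the deposited normalized signal of each gene, in which reads had been divided by 1 size factor per library. A read of these libraries comes from the 3′ end of a transcript. Values were compared between libraries for a gene and not between genes. Human depth was 8303617 to 18568119 reads per library, and host depth was 3606008 to 6850491. Basal squamous marker genes such as the basal keratins summed to between 251344 and 480101 in every library, whereas marker genes of differentiated urothelium summed to between 289 and 518. In bulk tumour RNA, fewer cells of a type and less RNA per cell cannot be told apart. The 10 genes were chosen with results from these same libraries known, so their differences between treatments are given as descriptions. Calls from the fit across all genes are given for them beside the share of all genes called, and support nothing about them.

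Of the 10 genes, 9 had a normalized value of 1 or more in 4 or more libraries, the filter used for all tests. KLK14, a trypsin-like protease of the epidermis, was the exception. It had 1 read in the whole series, in combination library 1 at a value of 1.05, and none in the other 15 libraries, where a count of 0 allows up to 3 reads. The other 9 genes together took 0.0287% ± 0.00330 (SD, n = 4) of human reads with vehicle. In nintedanib tumours their share was 0.0363% ± 0.00598 (SD, n = 4). The alpelisib group had 0.0411% ± 0.00636 (SD, n = 4), and the group given both drugs had 0.0233% ± 0.00294 (SD, n = 4). The mean share was thus highest in tumours given alpelisib alone and lowest in those given both drugs. Libraries overlapped at both ends of this order. They ran from 0.0244% to 0.0325% with vehicle and from 0.0211% to 0.0274% with both drugs. With nintedanib they ran from 0.0279% to 0.0414%, and with alpelisib from 0.0345% to 0.0497%. Reads of KLK8 and KLK10, 18130 and 19074 in all, weigh most in this share.

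**Figure D1:**
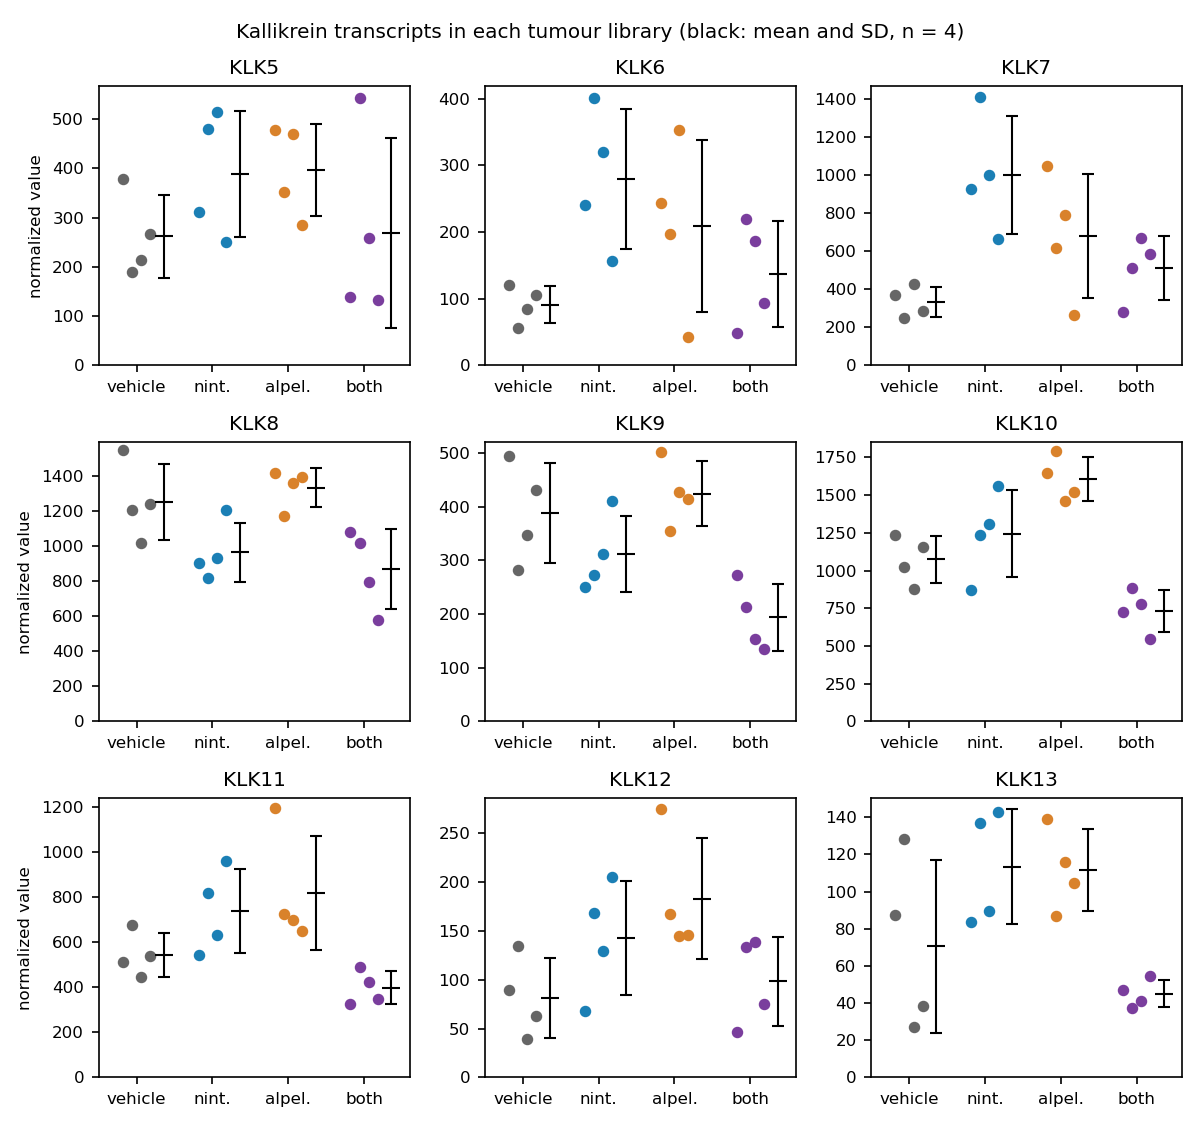
Normalized value (linear axes from 0, one panel per gene) of the 9 epidermal kallikreins past the filter, with a point for each of the 16 libraries by treatment group; black marks are group means with SD (n = 4). For KLK10 the alpelisib points, 1462 to 1789.5, lie above all combination points, 546 to 882, while for KLK5 the groups overlap.

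The plot of normalized values by treatment shows the group pattern gene by gene. The arithmetic mean of the normalized values was highest with alpelisib alone in 6 genes, KLK5, KLK8, KLK9, KLK10, KLK11 and KLK12, and highest with nintedanib alone in KLK6, KLK7 and KLK13. The lowest mean fell in the combination for 5 genes, KLK8, KLK9, KLK10, KLK11 and KLK13, and in vehicle for KLK5, KLK6, KLK7 and KLK12. For KLK5 the place of vehicle and the combination depended on the scale, since the means were 262 and 269 but the mean of log2 values was lower in the combination. In no gene did 2 groups next to each other in this order have separate ranges, so the order of neighbours lies within the spread of the libraries.

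KLK10, a family member named for its expression in normal epithelial cells and often silenced in carcinomas, lay wholly lower with both drugs than with alpelisib alone, and overlapped between both drugs and nintedanib alone. Its vehicle values were 1239, 1021, 879.5 and 1153. Its nintedanib values were 869.8, 1236, 1309.8 and 1563. Alpelisib libraries read 1647, 1789.5, 1462 and 1517, and combination libraries read 727, 882, 779.6 and 546. Every alpelisib value was above every vehicle value and above every combination value, and the single library of the combination that reached the range of vehicle was combination 2. On the log2(value + 1) scale KLK10 in the combination was -1.14 (SE 0.18) against alpelisib, -0.75 (SE 0.18) against nintedanib and -0.56 (SE 0.18) against vehicle. With alpelisib alone it stood 0.59 (SE 0.18) above vehicle.

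KLK11, a trypsin-like protease also known as hippostasin, followed a similar course. With vehicle its values were 514, 675, 445 and 540.4. With nintedanib they were 544, 819.7, 634 and 959, and with alpelisib 1197, 727, 697 and 651. Both single-drug groups lay wholly above the combination, whose values were 328, 489.5, 425 and 349.6. The combination differed by -1.01 (SE 0.21) from alpelisib and by -0.88 (SE 0.21) from nintedanib on the log2 scale. Alpelisib 1 was far above the rest of its group, and without it the difference of the combination from alpelisib was -0.81.

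KLK13, a trypsin-like protease of stratified epithelia, had vehicle values that spread from 27.2 to 128. Its nintedanib values were 83.5, 137, 89.7 and 143, and its alpelisib values were 139, 86.7, 116 and 105. The combination values of 47.1, 37.4, 41.4 and 54.6 lay below all 8 single-drug values and inside the range of vehicle. KLK13 was thus -1.28 (SE 0.37) in the combination against each single drug, the most negative log2 difference of the 9 genes in both comparisons. Against vehicle it was -0.39 (SE 0.37), which came to -0.02 without vehicle 2.

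KLK9, a chymotrypsin-like member, was the gene whose combination group lay wholly below vehicle. Vehicle values were 494, 282, 346 and 431, and combination values were 272, 213, 154 and 135. The gap between the groups was narrow, since combination 1 at 272 stood next to vehicle 2 at 282. KLK9 differed by -1.02 (SE 0.23) between combination and vehicle and by -1.17 (SE 0.23) between combination and alpelisib, where the values were 502, 354, 428 and 414. With nintedanib it read 250.5, 272, 312 and 411, which overlapped both vehicle and the combination.

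KLK8, or neuropsin, a trypsin-like protease of epidermis and brain, had the smallest span of group means on the log2 scale. Its values ran from 1016 to 1544 with vehicle, from 817 to 1203 with nintedanib and from 1169 to 1413 with alpelisib. In the combination they ran from 578 to 1081, below all alpelisib values, with a log2 difference of -0.66 (SE 0.19). KLK12, a trypsin-like protease, ran from 39.1 to 134 with vehicle and from 145 to 274 with alpelisib, so those groups were separate. Its difference between them was 1.24 (SE 0.40), the highest of the 9 genes with alpelisib. In the combination KLK12 ran from 46.1 to 138, again wholly below alpelisib, at -0.97 (SE 0.40).

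KLK5, KLK6 and KLK7 lie at the other end of the cluster, and of these KLK6 and KLK7 lay wholly above vehicle with nintedanib. KLK7 is the chymotrypsin-like enzyme of the stratum corneum that cuts corneodesmosin, the product of CDSN. Its vehicle values were 367, 249, 425 and 284, and its nintedanib values of 923, 1408, 997 and 661 all lay above them, by 1.57 (SE 0.33) on the log2 scale. With alpelisib the values of KLK7 were 1044, 614, 787 and 266, and with both drugs 279, 511, 669.8 and 582. KLK7 in the combination thus overlapped both vehicle and alpelisib, and the difference from alpelisib was -0.32 (SE 0.33). That value depended on single libraries, being -0.06 without alpelisib 1 and -0.71 without alpelisib 4.

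KLK6, a trypsin-like protease also called neurosin, had the other large difference with nintedanib. It read 120.04, 55.9, 84.0 and 105 with vehicle and 241, 401, 319.8 and 157 with nintedanib, 1.58 (SE 0.51) higher with no overlap. Alpelisib values of KLK6 were 243, 197, 353 and 41.9, and combination values were 49.2, 219, 186 and 93.0. Alpelisib 4 was the lowest of all 16 libraries for KLK6, and the alpelisib difference from vehicle was 0.89 (SE 0.51) with it and 1.54 without it. KLK5, which starts the activation cascade in skin, overlapped between every pair of groups. It ran from 189 to 378 with vehicle, 251 to 515 with nintedanib, 285 to 478 with alpelisib and 133 to 544 with both. Its sign against vehicle in the combination, -0.16 (SE 0.35), changed in 6 of the alternative settings.

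Over the 9 genes, the median log2 difference from vehicle was 0.56 with nintedanib, 0.61 with alpelisib and -0.39 with both drugs, beside 0.02, 0.0055 and 0.03 over all 17663 human genes tested. All 9 were above 0 with alpelisib and 7 were above 0 with nintedanib, while 6 were below 0 in the combination. The combination median was -0.20 without vehicle 1 and -0.21 with DESeq2. These comparisons share the same vehicle libraries. Against nintedanib the combination had a median of -0.75 and against alpelisib -0.97, with all 9 genes below 0 in both. The corresponding medians over all genes were 0.0079 and 0.012.

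Counts of separated groups were set beside their background in all genes. In the combination against alpelisib, 6 of the 9 genes, KLK8 to KLK13, lay wholly below, where 1.49% of all genes did, and none lay wholly above, where 1.60% did. Against nintedanib, KLK11 and KLK13 lay wholly below, beside 1.66%, and none lay wholly above, beside 1.84%. Against vehicle, KLK9 alone lay wholly below in the combination, beside 1.08%, KLK10 and KLK12 lay wholly above with alpelisib, beside 1.23%, and KLK6 and KLK7 lay wholly above with nintedanib, beside 4.86%. None lay wholly below vehicle with nintedanib, beside 3.22%, or with alpelisib, beside 0.685%, and none lay wholly above it in the combination, beside 1.79%. With limma across all genes, KLK10 in the combination against alpelisib was the single gene past an adjusted p of 0.05, which is 0.00566% of the genes tested, and no gene passed in the other 5 comparisons (0%). At an unadjusted p under 0.05 limma listed 2045 of all genes with nintedanib, 438 with alpelisib and 1441 with both against vehicle. It listed 1638 in the combination against nintedanib, 1492 in the combination against alpelisib and 1100 in the interaction. The KLK10 call held with nintedanib 1, nintedanib 4 or combination 2 left out and lost with any other single library left out, and edgeR's quasi-likelihood test on recovered reads called no gene in any of the 6 comparisons. DESeq2 on recovered reads called KLK9, KLK10 and KLK11 in the combination against alpelisib, among 17 genes in all. Because the genes were picked with these contrasts known, nothing is read from the counts.

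Nintedanib 4 and combination 1 carried the most mouse skeletal muscle transcripts, with summed marker values of 190239 and 113134. Without these libraries the median difference of the combination was -0.67 against nintedanib and -0.77 against alpelisib. KLK7 then differed by -0.05 between combination and alpelisib and KLK6 by -0.07. The count of genes wholly below in the combination was 5 against nintedanib and 6 against alpelisib. Such counts can only stay or rise when libraries are left out, and the share of all genes was not computed for the smaller groups. When values were scaled to the human plus mouse total, 4 of the 9 genes lay wholly below vehicle in the combination and 1 lay wholly above vehicle with alpelisib. The share of all genes under that scaling was not computed, so nothing is read from these counts.

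**Figure D2:**
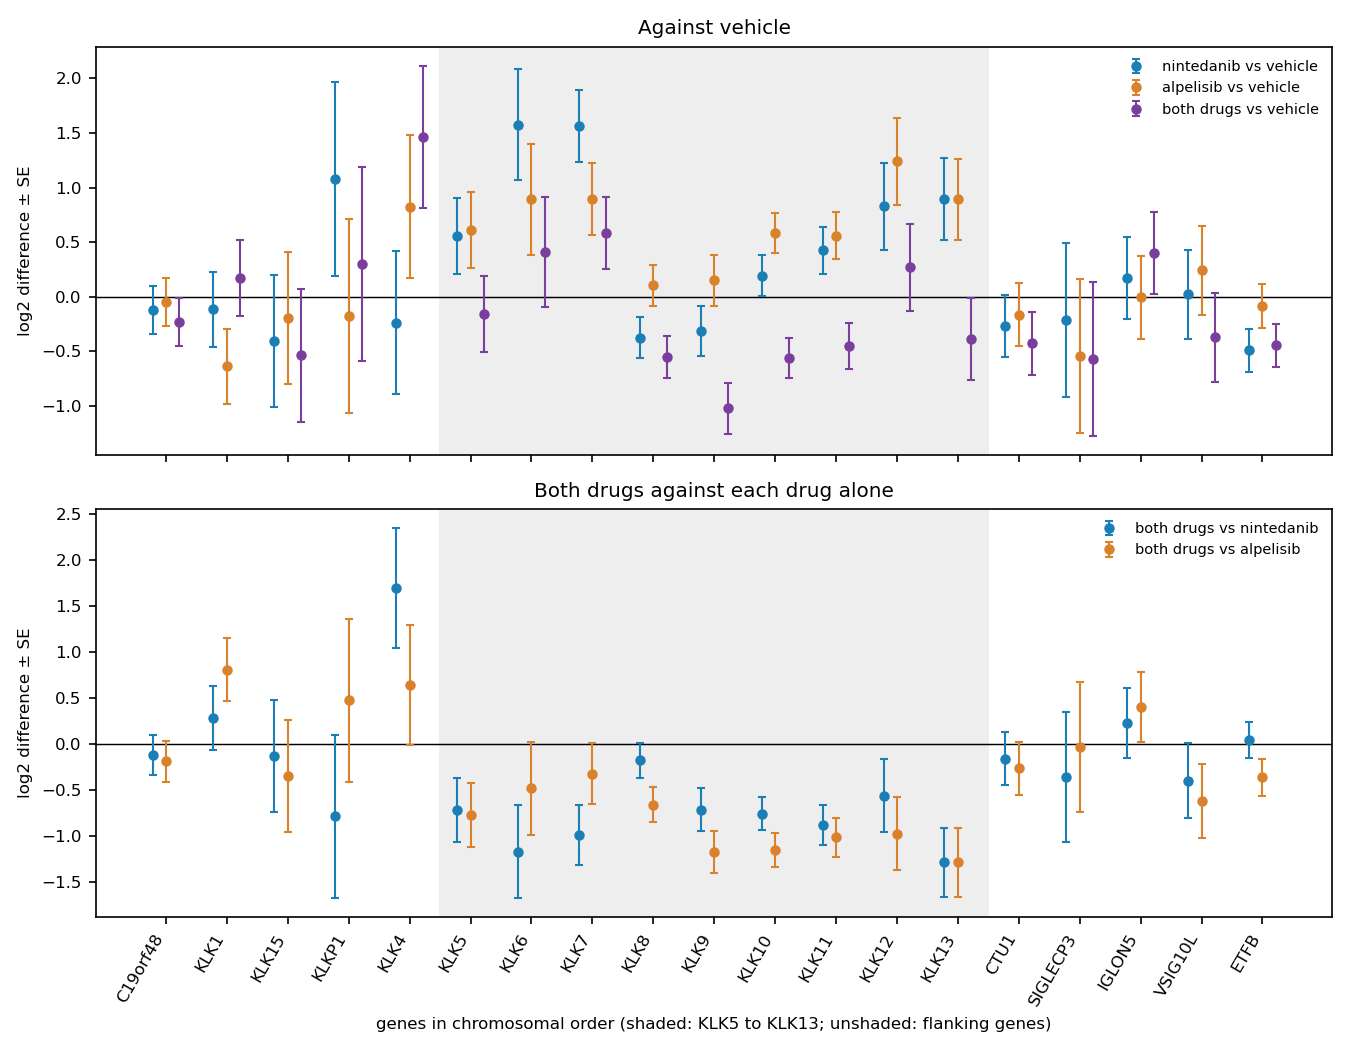
Log2 difference (points, with SE bars) of the 9 tested kallikreins (shaded) and 10 flanking genes (unshaded) in their order along chromosome 19; the upper panel is against vehicle and the lower panel sets both drugs against each drug alone. The combination differs from alpelisib by between -1.28 and -0.32 across the 9 kallikreins and by between -0.62 and 0.81 across the flanking genes, whose median is -0.11.

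The interaction, which is the combination minus both single drugs plus vehicle, was negative in all 9 genes. It ran from -2.17 (SE 0.53) for KLK13 to -0.28 (SE 0.27) for KLK8, with a median of -1.44 beside -0.0037 over all genes. KLK6 had -2.06 (SE 0.72), KLK7 -1.89 (SE 0.47) and KLK12 -1.80 (SE 0.56). KLK11 had -1.44 (SE 0.30), KLK10 -1.34 (SE 0.26), KLK5 -1.33 (SE 0.49) and KLK9 -0.86 (SE 0.33). For the genes at the KLK6 and KLK7 end, single-drug means above vehicle made up most of this value. For KLK9, the combination mean below vehicle did.

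The rule named the genes and used no position, and the plot of log2 differences along the cluster places them in that order. The 10 flanking genes were C19orf48, KLK1, KLK15, KLKP1 and KLK4 on one side of KLK5 and CTU1, SIGLECP3, IGLON5, VSIG10L and ETFB beyond KLK14. Their median difference was -0.12 with alpelisib, -0.17 with nintedanib and -0.30 with both drugs against vehicle, and -0.11 in the combination against alpelisib. In that last comparison they ran from -0.62 to 0.81. None passed the limma threshold in any comparison, but KLK15, KLKP1, KLK4 and SIGLECP3 were near the floor. Their mean values were 0.66, 3.18, 2.44 and 4.73. KLK1, the tissue kallikrein that releases kinins, ran from 20.9 to 55.9 with alpelisib and from 54.5 to 86.8 with both drugs. It was 0.81 (SE 0.34) in the combination against alpelisib, opposite in sign to the 9 epidermal members. KLK2 and KLK3, the prostate kallikreins, did not pass the filter on low values.

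**Figure D3:**
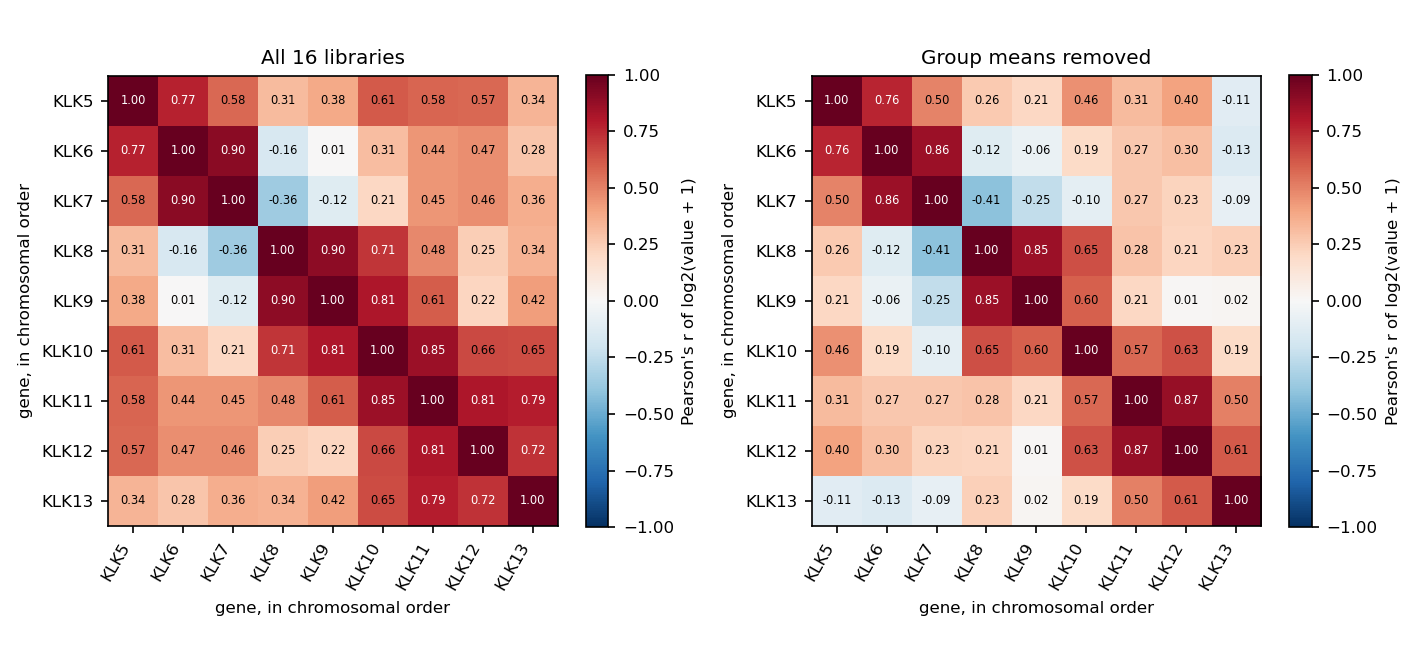
Pearson correlation of log2 values between each pair of the 9 kallikreins over the 16 libraries, in chromosomal order on both axes, as measured (left) and with group means removed (right). Pairs next to each other sit near 0.81 in the median, apart from KLK7 with KLK8 at -0.36.

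How the members varied together across libraries is shown by the matrix of pairwise correlations. Over the 16 libraries the 36 pairs had a median Pearson r of 0.46, from -0.36 to 0.90, and 33 were above 0. The 8 pairs of neighbours had a median r of 0.81, against 0.43 for the 28 other pairs. With group means removed these medians were 0.69 and 0.22. Values of a library share its depth and size factor, and 16 libraries give each r a wide margin.

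Along the chromosome, neighbours were alike except at one place. KLK5 with KLK6 had r = 0.77 and KLK6 with KLK7 had r = 0.90. KLK8 with KLK9 had 0.90, KLK9 with KLK10 0.81, KLK10 with KLK11 0.85, KLK11 with KLK12 0.81 and KLK12 with KLK13 0.72. KLK7 with KLK8 had r = -0.36, and -0.41 with group means removed. The negative r among neighbours thus fell between KLK7 and KLK8. It concerned neighbours only, since across that place KLK5 had r = 0.61 with KLK10 and 0.31 with KLK8. No neighbouring gene bodies overlap in the RefSeq annotation of GRCh38.p14, which was used for gene order only. Whether the counting could assign reads of one gene to its neighbour was not tested.

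Genes with a pattern most like the mean of the 9 members were sought among 13124 human genes, by Pearson r over the 16 libraries. The 8 highest were SPRR2E (r = 0.79), CDSN (0.78), NDRG2 (0.78), NCCRP1 (0.77), PLAC2 (0.76), AZGP1 (0.76), SPRR2B (0.75) and C9orf169 (0.74). SPRR2E and SPRR2B encode small proline-rich proteins of the cornified envelope. CDSN encodes corneodesmosin, a corneodesmosome protein cut by KLK5 and KLK7. These values describe likeness in 16 libraries that also share their treatments.

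**Figure D4:**
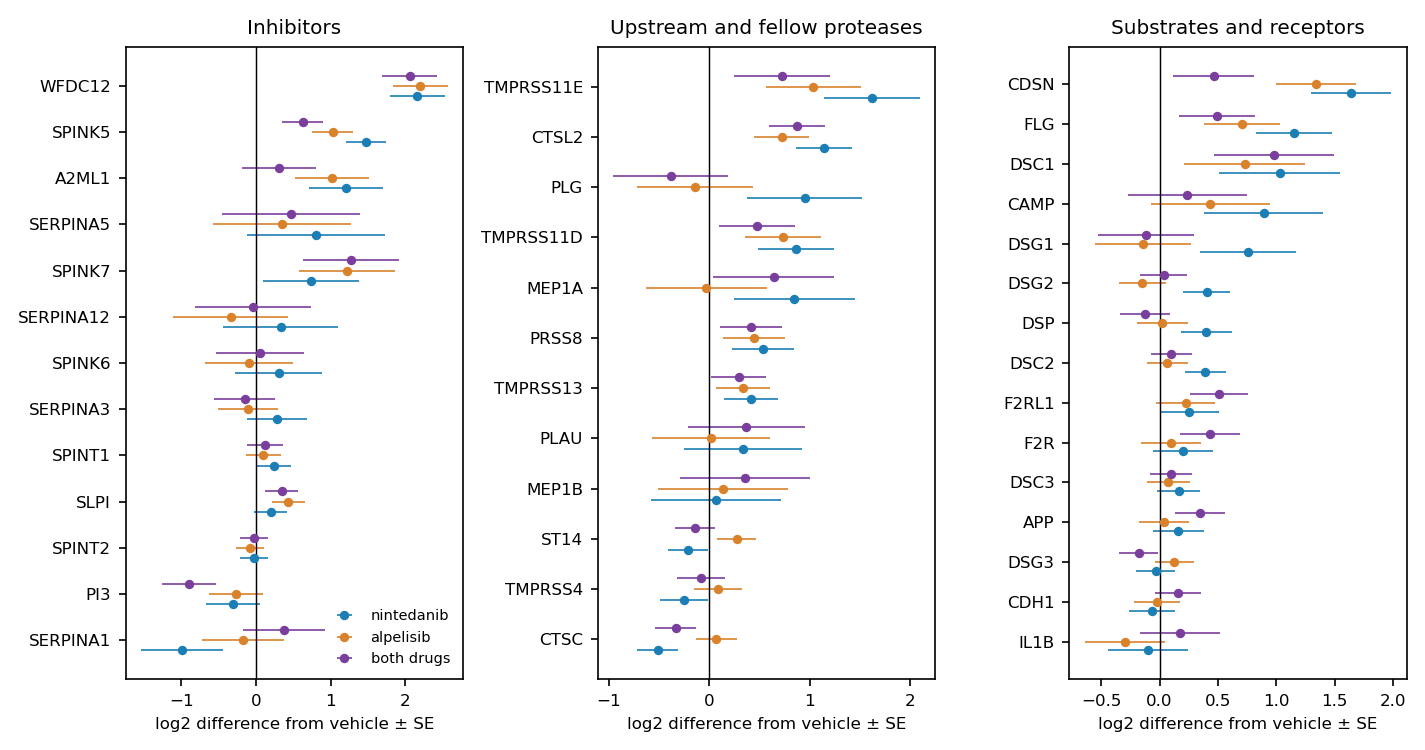
Log2 difference from vehicle with nintedanib, alpelisib or both drugs (points, with SE bars) for genes that act with the kallikreins, in panels of inhibitors, upstream and fellow proteases, and substrates and receptors. WFDC12 lies at 2.06 to 2.20 against vehicle in all 3 drug groups, while none of the 40 tested genes passed the limma threshold.

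Genes that act with kallikreins were taken from 3 lists of inhibitors, upstream and fellow proteases, and substrates or receptors, and the plot of differences from vehicle shows them all. Of 43 listed genes 40 could be tested, and none passed the limma threshold in any of the 6 comparisons, where all genes gave 0% or 0.00566%. At an unadjusted p under 0.05 limma listed 10 of the 40 with nintedanib, 6 with alpelisib and 4 with both against vehicle, where 11.6%, 2.48% and 8.16% of all genes were listed. It listed 6 in the combination against nintedanib, beside 9.27% of all genes, 2 in the combination against alpelisib, beside 8.45%, and 8 in the interaction, beside 6.23%. EdgeR called none, whereas DESeq2 called CDSN, CTSL2, SPINK5 and WFDC12 with nintedanib, among 74 genes in all. DESeq2 also called WFDC12 with alpelisib, among 1 gene in all, and with both, among 14. The median difference of the 40 genes from vehicle was 0.36 with nintedanib, with 31 above 0, 0.10 with alpelisib, with 28 above 0, and 0.30 with both drugs, with 29 above 0. In the combination against alpelisib the median was 0.02 and 21 were above 0. The kallikreins were all 9 below 0 in that comparison, but they had been picked with it known, so no contrast with the partner genes is read.

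Among the inhibitors, SPINK5 ran from 829 to 2044 with vehicle and from 2658 to 5107 with nintedanib, which did not overlap. It was 1.47 (SE 0.27) above vehicle with nintedanib, 1.03 (SE 0.27) with alpelisib and 0.63 (SE 0.27) with both, with limma adjusted p of 0.124, 1 and 0.601. WFDC12, a small secreted protein with a protease inhibitor domain, ran from 16.2 to 27.9 with vehicle. In the drug groups WFDC12 ran from 67.8 to 189 with nintedanib, 75.2 to 145 with alpelisib and 55.5 to 175 with both, all above vehicle. Its differences were 2.16, 2.20 and 2.06 (SE 0.37), with limma adjusted p of 0.108, 0.0817 and 0.205. PI3, which encodes the elastase inhibitor elafin, was -0.90 (SE 0.36) in the combination against vehicle.

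CDSN, among the substrates, ran from 221 to 288 with vehicle, 531 to 1328 with nintedanib, 392 to 1039 with alpelisib and 187 to 646 with both. CDSN was 1.64, 1.34 and 0.46 (SE 0.34) against vehicle, with limma adjusted p of 0.131, 1 and 0.756. Both single-drug groups lay wholly above vehicle and the combination overlapped it. FLG, which encodes filaggrin, a protein processed as cells cornify, was 1.15, 0.70 and 0.49 (SE 0.32) against vehicle in the same order. Among the proteases, CTSL2, the cathepsin that is also called cathepsin V, was 1.14, 0.72 and 0.87 (SE 0.28). TMPRSS11E, a membrane-bound serine protease of squamous epithelium, was 1.62, 1.04 and 0.73 (SE 0.48). ST14, which encodes matriptase, an activator of kallikrein precursors in skin, was -0.41 (SE 0.20) in the combination against alpelisib.

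A list of 31 cornified-envelope and late differentiation genes, 30 of them tested, was used to set the kallikreins beside the rest of the programme of squamous maturation. Its median difference from vehicle was 0.57 with nintedanib, 0.49 with alpelisib and 0.12 with both, and no gene passed the limma threshold, with 15, 10 and 2 of the 30 at an unadjusted p under 0.05, beside 11.6%, 2.48% and 8.16% of all genes. In the combination against alpelisib 27 of the 30 were below 0, with a median of -0.53. Summed values of this list were 53277 ± 9978 with vehicle, 83648 ± 17920 with nintedanib, 78328 ± 19186 with alpelisib and 57164 ± 17473 with both (SD, n = 4). These sums were thus higher with each single drug than with both, as the kallikrein share of reads was, and the part of such differences in squamous maturation in the kallikrein values was not tested.

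Transcription factors known to govern keratinocyte differentiation gave no limma call among 22 genes tested, with 4, 1 and 3 at an unadjusted p under 0.05 against vehicle, beside 11.6%, 2.48% and 8.16% of all genes. PRDM1, which encodes BLIMP1, a transcriptional repressor with a part in terminal keratinocyte differentiation, ran from 57.2 to 141 with vehicle and from 163 to 353 with nintedanib. Its difference of 1.49 was the highest of this list with nintedanib. ELF3, an epithelial ETS factor, was 0.71 (SE 0.28) with alpelisib. Of 15 nuclear receptor genes, a class known to act on several kallikrein promoters, none was called by limma in any comparison, with at most 1 at an unadjusted p under 0.05 and with medians of 0.10, 0.04 and 0.14 against vehicle.

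**Figure D5:**
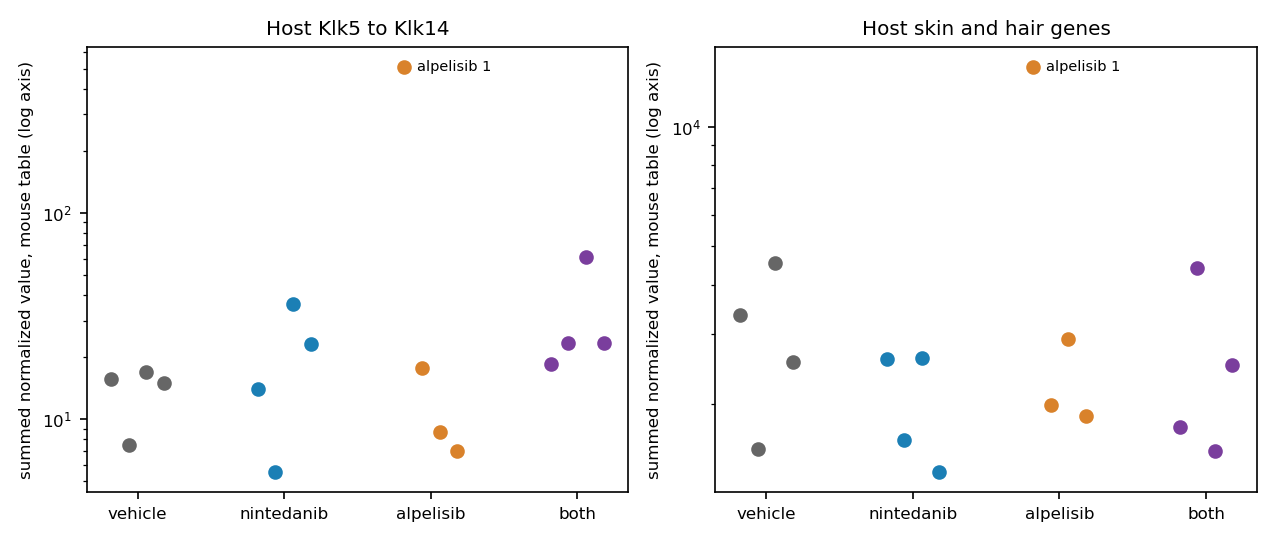
Summed normalized value (log axes) of the mouse Klk5 to Klk14 genes (left) and of mouse skin and hair genes (right), with a point for each of the 16 libraries by treatment group. Alpelisib 1 stands at 508 and 14138.8, above all other libraries in both sums.

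The host carries the same family, and mouse-mapped values were examined for it. Of the 10 mouse genes Klk5 to Klk14, 5 passed the filter, and none passed the limma threshold in the 3 comparisons with vehicle, where 0%, 0% and 0.0515% of mouse genes did, and 0 of the 5 had an unadjusted p under 0.05, beside 6.01%, 3.26% and 7.67%. The plot of host kallikrein sums by library has a single high point. Their summed value was 508 in alpelisib 1, between 7.05 and 17.7 in the other alpelisib libraries and between 5.54 and 60.8 in the remaining groups. Mouse skin and hair genes summed to 14138.8 in that library and to between 1346 and 4543 in the other 15. Mouse Klk7 alone read 332 there. Mouse Klk8 ran from 0 to 14.8 with vehicle, 3.69 to 13.3 with nintedanib, 4.33 to 43.4 with alpelisib and 15.5 to 18.3 with both drugs. The combination thus lay wholly above vehicle and nintedanib for Klk8, at 16 to 27 reads per library. Its difference from vehicle was 1.60 (SE 0.77), with a limma adjusted p of 0.658. The share of all mouse genes separated in this way was not computed, so nothing is read from it.

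Alpelisib 1 also held the highest alpelisib value for 7 of the 9 human genes. Without it, the median difference of the 9 genes from vehicle with alpelisib was 0.57 and the median of the combination against alpelisib was -0.76. Leaving out a library cannot make separate groups overlap, so the separation of the 6 genes KLK8 to KLK13 could not have been lost. The KLK10 difference between combination and alpelisib was -1.13 without alpelisib 1. The host median with alpelisib was 0.72 with that library and -0.09 without it. Whether reads of host kallikreins also mapped to the human genes was not tested beyond these values.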

How the data were processed

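Human-mapped and mouse-mapped transcripts of 16 tumour libraries were read from 2 tables. Libraries were made with the QuantSeq 3′ kit, per the labels' protocols, and TopHat with hg19 and mm10 is named in the submitters' processing notes. No source used here gives the counting tool, the annotation or the scaling. The deposited values are a normalized signal per gene and library. Within 0.01 read, 100% of values above 0 were whole multiples of 1 step per library, so whole reads were recovered for edgeR 4.0.16 and DESeq2 1.42.0. Depth gives counting error only.

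The planned branch for normalized values was used. The filter kept 17663 human and 17484 mouse genes that had a value of 1 or more in 4 or more libraries. Log2(value + 1) was fitted with limma 3.58.1 (R 4.3.3, trend) as 4 group means over all 16 libraries, with Benjamini-Hochberg adjustment over all genes tested and a threshold of 0.05. The steps were tested on simulated data. The members and the gene lists were chosen with earlier results of these data known. Named partner genes were those of smallest p in each list, and the 8 most alike genes were those of highest Pearson r with the mean z score of the 9 members among genes with a mean value of at least 10. The labels do not tie libraries to animals, and p-values therefore reflect only the spread of these libraries, which may be technical. Replicates differed beyond counting noise, so no library was counted as a copy of another.

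Alternatives were other scalings (quantile, human plus mouse total), no trend, other filters and pseudocount, only the groups compared, the replicate number as a block, edgeR, DESeq2, leaving out each library in turn and leaving out the 2 muscle-rich libraries. Counts of separated groups under these were added after seeing the data.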

Additional observations from a re-analysis of the deposited data

Results flagged for a closer look

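Of 83 groups of 4 libraries checked, 23 held a library far from the other 3 by Dixon's criterion, where chance flags about 1 in 20 groups. That rate does not hold where 3 libraries read 0, since any other value is then flagged. Many of the flagged groups were of that kind. Among the human genes, KLK11 read 1197 in alpelisib 1, against 651 to 727 in the rest of that group. KLK14 read 1.05 in combination 1, KLK2 6.36 in combination 3, KLK3 1.12 in vehicle 2 and KLK15 1.35 in combination 4, each beside libraries at or near 0.

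Most of the remaining cases were host genes. In alpelisib 1, mouse Klk5 read 21.7, Klk6 24.6, Klk7 332, Klk8 43.4, Klk9 23.6 and Klk10 53.8. The other alpelisib libraries had at most 1.73 for Klk7, 6.24 for Klk8 and 2.08 for Klk9. Klk7 read 22.3 in nintedanib 3 and 27.5 in combination 3, and Klk9 read 7.74 in nintedanib 4 and 10.3 in combination 3. The remaining host values stood at a few reads. Klk5 read 0.933 in nintedanib 1, Klk6 1.01 in combination 4, and Klk11 0 in combination 4, where the other 3 libraries had 1.96 to 2.29. Klk13 read 0.922 in vehicle 1, 1.73 in alpelisib 3 and 1.31 in combination 2, and Klk14 read 2.73 in vehicle 4 and 2.29 in combination 3, beside libraries at 0.

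In 3 human genes a drug went with higher values alone and lower values on top of the other drug. Every library of the first arm lay above, and every library of the second below, the mean log2(value + 1) of its reference group. With means of the normalized values instead, KLK7 for nintedanib and KLK12 for alpelisib also met this rule, so the count of 3 depends on the scale. KLK10 stood at 0.59 with alpelisib against vehicle and at -0.75 when alpelisib was joined to nintedanib, an interaction of -1.34. For KLK11 the differences were 0.43 and -1.01 for nintedanib and 0.56 and -0.88 for alpelisib, with an interaction of -1.44. For KLK13 they were 0.89 and -1.28 for both drugs, with an interaction of -2.17. The genes had been chosen with these contrasts known, so nothing is read from the limma interaction fitted across all genes, in which none of the 3 passed the adjusted threshold.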

How the results depend on the processing

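Of 1449 log2 differences of single members under alternatives, 1441 kept their sign, and the 8 others were KLK5 (6) and KLK12 (1) in the combination against vehicle and KLK8 (1) in the combination against nintedanib. Medians over the members kept their sign and moved by less than the pooled spread of 0.472 between libraries, with -0.56 to -0.20 for the combination against vehicle when single libraries were left out. Host medians changed sign, to -0.11 (without vehicle 1) and -0.10 (without vehicle 4) with nintedanib, -0.09 (without alpelisib 1) with alpelisib and -0.15 (without vehicle 1) with both, within the host spread of 1.42.

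Calls were less stable. The single member called in the combination against alpelisib, KLK10, came to 0 under quantile normalization, no trend, no filter, a value of at least 10, a pseudocount of 0.1, only the groups compared and edgeR. The count was 2 without the muscle-rich libraries, among 14 of 17259 genes, and 3 with DESeq2, among 17 of 15105. DESeq2 called 1 member with nintedanib, among 74 of 13898 genes. It called 1 in the combination against vehicle, among 14 of 12295, and 3 in the interaction, among 10 of 20738. For partner genes it called 4 with nintedanib, 1 with alpelisib, among 1 of 20738, 1 with both and 3 in the interaction (CDSN, SPINK5, WFDC12). Without the muscle-rich libraries limma called 2 partner genes with nintedanib, among 8 of 17259 genes. The host median with alpelisib was 2.40 with DESeq2. The causes were not tested.

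Libraries of the same replicate number showed little likeness. Those 24 pairs had r of -0.22 to 0.15 (median 0.03), beside -0.24 to 0.29 (median 0.0068) for 72 pairs of different number. Of the 16 libraries, 4 correlated best with their own number. The labels do not say what the number marks, and such values cannot show that nothing was shared. With the replicate block, 0 members were called in the combination against alpelisib, where 0 of 17663 genes were. That fit called 3 partner genes with nintedanib, among 8 genes in all, and 1 with alpelisib, among 1.

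Leaving out single libraries gave 0 to 1 members called with nintedanib (KLK7 without alpelisib 4, among 4 of 17486 genes). It gave 0 to 1 in the combination against alpelisib, where KLK10 was the only gene called. In the interaction it gave 0 to 1 (without nintedanib 1, among 3 of 17551 genes, or combination 2, among 8 of 17591). Partner genes called with nintedanib were 0 to 1 (without vehicle 2, nintedanib 1 or combination 2, among 2 genes each, or without alpelisib 4, among 4). With alpelisib they were 0 to 1 (without combination 1 or 2, among 1 gene each).

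Separated members with nintedanib numbered 0 to 1 lower (1 without nintedanib 4), and 1 under human plus mouse scaling and without the muscle-rich libraries. With alpelisib 2 to 5 were higher (5 without alpelisib 4), and 1 under that scaling. In the combination against vehicle 0 to 1 were higher (1 without combination 1, and 1 without the muscle-rich libraries) and 1 to 4 lower (4 without vehicle 3, 3 without combination 2, and 4 under that scaling). Against nintedanib 2 to 4 were lower (4 without nintedanib 4, and 5 without the muscle-rich libraries). Shares of all genes were computed only with all 16 libraries and the deposited scaling, so nothing is read from these counts. Leaving out a library can only keep or raise the number of separated members.

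Depth limits KLK14, at 1 read in all, and most host kallikreins, at a few reads per library. With 4 libraries a group, KLK5, KLK6, KLK12 and KLK13 had SEs of 0.35 to 0.51.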
